A study of Homo sapiens with 2 samples.

Results

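The genes described here belong to the insulin-like growth factor (IGF) axis and to the first steps of insulin signalling. They are IGF2, H19, IGFBP1, IGFBP2, IGFBP3, IGFBP4, IGF1R, INSR, IRS1 and IRS2, and they were chosen by name, with every probe that the platform annotation assigns to them. All 10 genes had at least 1 probe, giving 13 probes, out of 20039 genes with a probe on the array. HepG2, an established human hepatoma cell line, was kept for 4 h in 40 µM berberine chloride, a plant alkaloid salt dissolved in DMSO, or in 0.08% DMSO alone as the control. The RNA of each culture was run on 1 Illumina HumanHT-12 v4 BeadChip, so there were 2 arrays and 1 array per group. With no replicates, no test between the groups was possible, each difference compares these 2 arrays only, and the number of arrays limits the precision. The RNA came from whole cultures, so fewer cells of a kind and less RNA per cell cannot be told apart.

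In the liver, insulin and the IGFs act through related receptors with tyrosine kinase activity. INSR binds insulin and IGF1R binds IGF1 and IGF2, and both phosphorylate the adaptors IRS1 and IRS2, which pass the signal to PI3-kinase and AKT. AKT in turn keeps the transcription factor FOXO1 out of the nucleus. The IGF-binding proteins hold IGFs outside the cell, and IGFBP1 is a classical liver gene that insulin represses and FOXO1 activates. H19 is a non-coding RNA that lies beside IGF2 and is imprinted in the opposite way, being transcribed from the maternal copy while IGF2 is transcribed from the paternal copy.

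Of the 10 genes, 4 were detected on both arrays (IGF2, IGFBP1, IGFBP2 and IRS1), 2 on the control array only (INSR and IGFBP4) and 4 on neither (H19, IGFBP3, IGF1R and IRS2). A probe counted as detected when its detection p, the share of negative-control values at least as bright, was under 0.01. None of the 4 genes measured on both arrays differed by over 1.5-fold, the fold threshold of the study's methods. Those methods pair this fold with a limit on P, which was not applied here because each group had 1 array. The nearest to the fold threshold was IGFBP1, 1.39-fold higher in berberine-treated cells. The threshold was passed upwards in berberine-treated cells by 353 (3.87%) and downwards by 373 (4.09%) of the 9128 genes with a probe detected on each array. Beside these shares, a count of 0 of 4 in either direction is near the background and is not a result about these genes. The median log2 difference, berberine minus control, was 0.16 over the 4 genes and -0.01 over all measured genes. Differences are given on the background-corrected and normalized log2 scale unless the deposited values are named, and intensities are the non-normalized readings of the scanner.

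**Figure D1:**
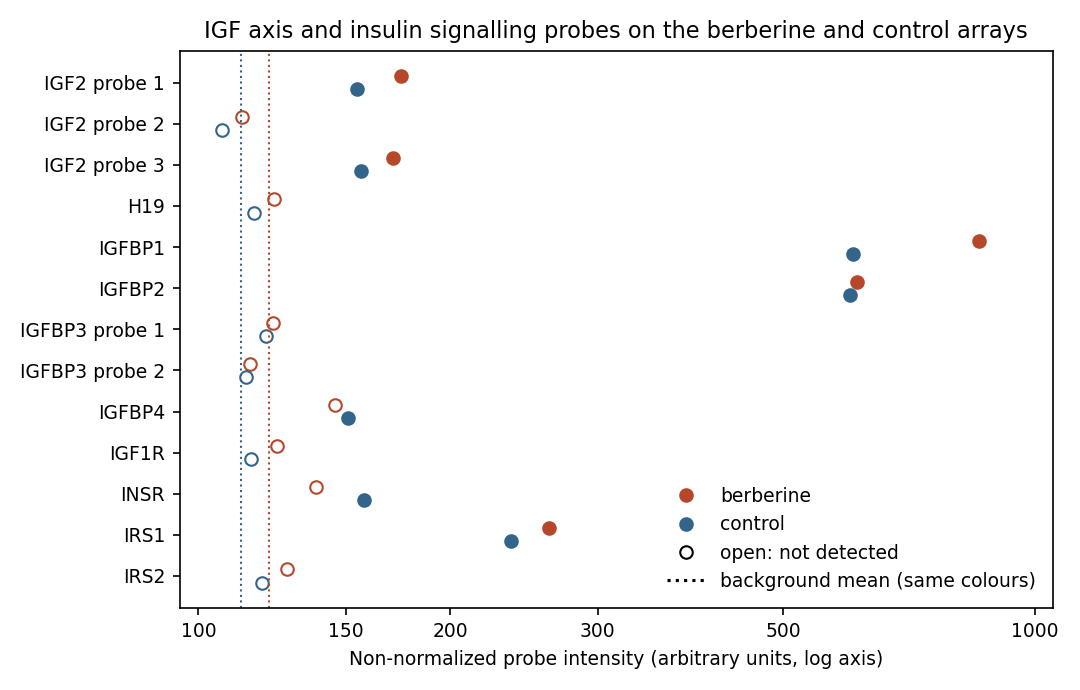
Non-normalized intensity (log axis) of each of the 13 probes on the berberine array and the control array. Filled points were detected, open points were not, and dotted lines mark the estimated mean background of each array, 121.5 for berberine and 112.5 for control; IGFBP1 and IGFBP2 stand at 600.7 and above, IRS1 at 236.3 and above, and the rest at or below 174.5.

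The arrays held 47231 probes each. Detected were 15415 probes (32.6%) with berberine and 15341 (32.5%) in control, and the median probe intensity was 130.1 with berberine and 120.6 in control. All 14 hepatocyte markers with a probe, among them ALB, AFP and APOA1, were detected on both arrays with log2 differences between -0.18 and 0.16. Of markers of other cells, 1 of 7 fibroblast genes (ACTA2), 0 of 4 endothelial genes and 2 of 4 immune genes (CD68 and LYZ) were detected on both arrays, and the defining markers COL1A1, PECAM1 and PTPRC on neither. The log2 differences were -0.06 for ACTA2, 0.30 for CD68, with -0.45 at its second detected probe, and 0.29 for LYZ, with 0.17 at its second.

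Error could be gauged only from genes with more than 1 detected probe. Between the 2 brightest probes of each of 2193 such genes, the differences scattered with a log2 SD of 0.25 for a single probe. This SD was 0.31 among dim pairs, 0.23 among those of middle brightness and 0.19 among bright pairs. Transcript forms that respond unequally enter it, while the scatter from culture to culture does not. Dim genes also passed the fold threshold more often. When the measured genes were split by mean level into equal parts, it was passed in either direction by 12.4% of the dimmest part and by 3.94% of the brightest. IGF2 and IRS1 belonged to the dimmest part, IGFBP2 to the middle one and IGFBP1 to the brightest.

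IGF2, the fetal growth factor that hepatoma cells often keep expressing, was close to background. Probe ILMN_1699867 had an intensity of 174.5 in berberine-treated cells and 154.9 in control cells, with a detection p of 0.0026 on each array. Probe ILMN_2413956 had 171.0 in berberine-treated cells and 156.5 in control cells, again with a detection p of 0.0026 on each. The log2 differences of these probes were 0.20 and 0.09, both under the SD of 0.31 of a single dim probe. In the deposited normalized intensity they were 0.07 and 0.03. Probe ILMN_2298035 of IGF2 was not detected, with 112.7 in berberine-treated cells (detection p 0.862) and 106.6 in control cells (detection p 0.726). The platform annotation gives it the same transcript record as ILMN_2413956, so probes for 1 record differed in whether they were detected. The brighter of the detected probes gives IGF2 a value 1.15-fold higher with berberine, and 1914 of the 9128 measured genes (21.0%) had a higher difference.

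H19 was not detected on either array. Its probe had an intensity of 123.1 in berberine-treated cells (detection p 0.355) and 116.4 in control cells (detection p 0.281), so no fold is given. In the RefSeq gene table of GRCh38.p14, H19 and IGF2 lie near each other on chromosome 11 with only MIR675 between them by start, and MIR675, a microRNA made from the H19 transcript, is the nearest entry to H19. The array gives no value for MIR675 here, and the sequences of its mature forms are shown because H19 is their precursor. Bases 2 to 8, the seed that pairs with targets, are in capitals. The forms lie on the minus strand at chr11:1996800-1996822 and chr11:1996768-1996787 of GRCh38.p14.
hsa-miR-675-5p: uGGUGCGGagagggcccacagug
hsa-miR-675-3p: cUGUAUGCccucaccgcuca
The seeds of these arms differ, so the arms were not grouped. INS, INS-IGF2 and MIR483, at or beside IGF2, were also at background. All 4 probes of INS, of the INS-IGF2 readthrough transcript and of MIR483, a microRNA gene inside IGF2, lay between 117.4 and 123.7 in berberine-treated cells and between 107.1 and 120.2 in control cells, and none was detected.

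Among the IGF-binding proteins, IGFBP1 and IGFBP2 were well above background while IGFBP3 was detected on neither array and IGFBP4 in control only. IGFBP1, the insulin-repressed liver form, had an intensity of 856.2 in berberine-treated cells and 606.4 in control cells, with a detection p of 0 on both arrays, meaning that none of 770 negative-control values was as bright. Its log2 difference of 0.47, or 1.39-fold higher with berberine, was larger than the single-probe SD of 0.19 among bright pairs but under the 1.5-fold threshold. It rests on 1 probe. Over the 9128 measured genes, 539 (5.90%) had a higher difference. The 7 alternative ways of processing the values gave log2 differences between 0.41 and 0.50, all under the threshold, and the deposited normalized intensity of 840.1 with berberine and 633.5 in control gave 1.33-fold.

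IGFBP2, a binding protein that is abundant in fetal liver, had an intensity of 612.5 in berberine-treated cells and 600.7 in control cells. After normalization its log2 difference was -0.05, and it was -0.04 in the deposited values, while the median of all probes was 130.1 with berberine and 120.6 in control before it. Both values are within the single-probe SD. Of the 4 binding proteins, IGFBP1 and IGFBP2 were thus those with a clear signal on both arrays, and of this pair IGFBP1 had a difference beyond the SD of a single probe.

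IGFBP3, the main carrier of IGFs in the circulation, was not detected with either of its probes. ILMN_1746085 had 122.8 in berberine-treated cells (detection p 0.369) and 120.5 in control cells (detection p 0.149), and ILMN_2396875 had 115.1 in berberine-treated cells (detection p 0.757) and 114.0 in control cells (detection p 0.377). In the RefSeq table IGFBP3 lies next to IGFBP1 on chromosome 7 with 0 genes between them by start, so of these adjacent genes 1 had a clear signal on both arrays and 1 had none above background.

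IGFBP4, which binds IGFs and is cut by the protease PAPPA, was detected on the control array only. Its intensity was 145.6 in berberine-treated cells (detection p 0.0221) and 150.9 in control cells (detection p 0.0039). The log2 values were 5.30 with berberine and 5.78 in control. A gene seen on 1 array has only a bounded fold. The dim side is set to the lowest log2 value of any detected probe on its array, 5.50 with berberine, or to the probe's own value if that is higher. On that basis IGFBP4 was at least 1.22-fold lower with berberine. This bound, -0.29 in log2, is smaller in size than the SD of 0.31 of a single dim probe. In the deposited values the bound was 1.07-fold.

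INSR, the insulin receptor, lay at the detection limit and had the larger bound of the 2 genes detected in control only. Its intensity was 138.1 in berberine-treated cells (detection p 0.0468) and 157.7 in control cells (detection p 0.0026), so it was detected on the control array only. The log2 values were 5.03 with berberine and 5.95 in control. The bound was at least 1.37-fold lower with berberine, under the threshold. Of the 358 genes detected on the control array only, 40 (11.2%) had a bound over 1.5-fold lower, and of the 380 detected on the berberine array only, 45 (11.8%) had one over 1.5-fold higher. With detection p under 0.05 accepted on both arrays, INSR became a measured gene with a log2 difference of -0.92, or 1.89-fold lower, and passed the threshold, as did 4.41% of the 10289 genes measured in that way in the same direction. In the deposited normalized values INSR had 136.0 with berberine and 166.4 in control, and the bound was at least 1.11-fold lower. The median of all probes there was 128.0 on both arrays, above the estimated background, so that table still holds the background. The call on INSR therefore depends on the detection limit and on the background.

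IGF1R, the receptor of IGF1 and IGF2, was not detected on either array, with an intensity of 124.2 in berberine-treated cells and 115.7 in control cells and a detection p of 0.319 on each. Neither receptor thus had a probe clearly above background on both arrays. Each was represented by 1 probe, and a probe at background does not show that the transcript is absent.

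The adaptors differed in detection. IRS1, the first described substrate of the insulin receptor, had an intensity of 262.6 in berberine-treated cells and 236.3 in control cells, with a detection p of 0 on both arrays. Its log2 difference was 0.12, within the single-probe SD of 0.25, and 2725 genes (29.9%) had a higher one. IRS2, the adaptor that insulin itself represses in liver, was not detected, with 127.5 in berberine-treated cells (detection p 0.226) and 119.1 in control cells (detection p 0.186).

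**Figure D2:**
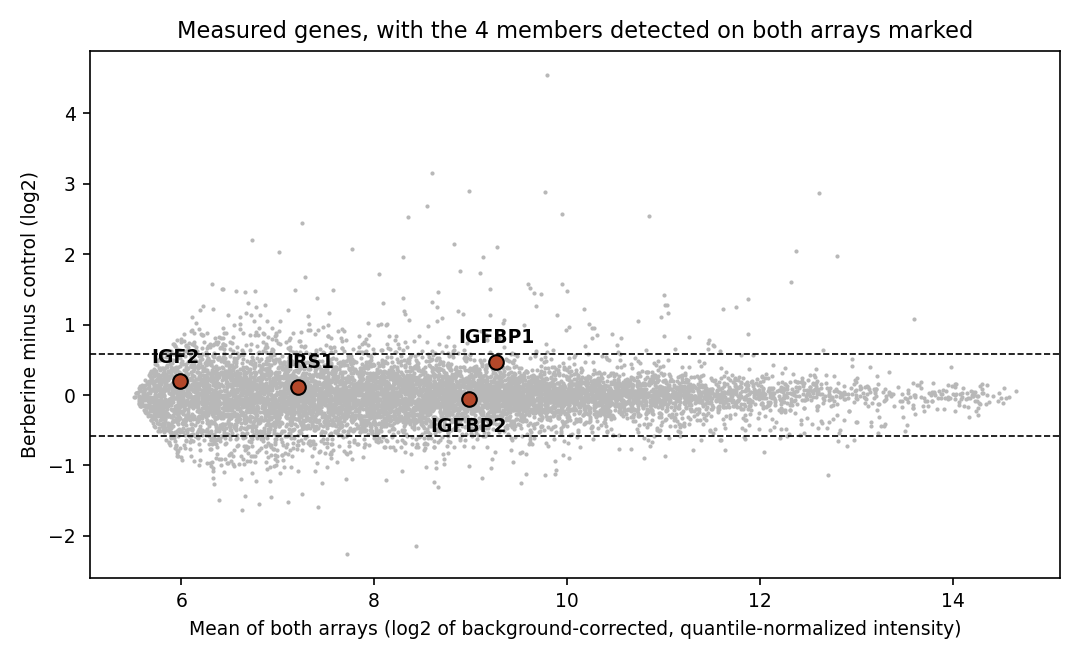
Log2 difference, berberine minus control, against the mean log2 value of both arrays for the 9128 measured genes (grey). The dashed lines mark 1.5-fold, and the 4 marked genes, IGF2 (0.20), IRS1 (0.12), IGFBP2 (-0.05) and IGFBP1 (0.47), all lie between them.

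Promoter windows of 8 of the 10 genes were read from the RefSeq table of GRCh38.p14, with 250 bases before and 50 after each annotated start, and searched on both strands for the FOXO motifs GTAAACA and CAAAACA and for the TATA box TATAAA. IGF2 and IGFBP1 were not analysed here in this way. Of 35116 windows in the whole table, 3.42% held GTAAACA, 4.92% held CAAAACA and 11.5% held TATAAA. Among the 10 windows of these 8 genes, GTAAACA was in 0, CAAAACA in 1 (IRS2) and TATAAA in 1 (IGFBP4). A match is a description of letters in a window and says nothing about binding. The IRS2 window is shown because it alone held a FOXO motif, in capitals as its reverse complement and 40 to 34 bases before the start. The IGFBP4 window is shown because it alone held a TATA box, in capitals 29 to 24 bases before the start. IRS2 lies at chr13:109786534-109786833 on the minus strand and IGFBP4 at chr17:40443200-40443499 on the plus strand, both written 5′ to 3′ along the gene.
IRS2: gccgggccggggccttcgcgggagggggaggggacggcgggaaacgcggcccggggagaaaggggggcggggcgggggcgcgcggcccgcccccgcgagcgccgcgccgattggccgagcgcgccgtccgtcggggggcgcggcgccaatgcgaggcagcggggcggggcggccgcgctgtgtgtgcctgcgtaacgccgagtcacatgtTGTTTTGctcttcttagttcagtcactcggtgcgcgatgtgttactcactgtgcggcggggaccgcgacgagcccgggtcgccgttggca
IGFBP4: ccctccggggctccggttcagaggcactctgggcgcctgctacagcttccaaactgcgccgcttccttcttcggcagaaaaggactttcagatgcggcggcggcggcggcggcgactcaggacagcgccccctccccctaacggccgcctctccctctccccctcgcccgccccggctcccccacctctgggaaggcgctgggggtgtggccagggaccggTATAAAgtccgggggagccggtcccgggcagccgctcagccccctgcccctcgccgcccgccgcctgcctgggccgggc
Neither gene was detected on both arrays, as given above, so these windows stand beside no fold.

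Other genes of the pathway were taken from 6 lists, and 122 of their genes had a probe. The counts below stand beside the shares over all measured genes, 3.87% over 1.5-fold higher and 4.09% lower. Among 17 other IGF axis genes, 7 were measured, 0 passed 1.5-fold upwards and 1 downwards, with a median log2 difference of 0.06. This is near the shares over all genes and is not a result about the list. The lower one was STC2, a secreted glycoprotein that inhibits the IGFBP4 protease PAPPA. Its intensity was 471.9 in berberine-treated cells and 790.9 in control cells, or 2.02-fold lower, and the deposited values gave 1.79-fold. The other 6 measured genes were IGF2R, which clears IGF2, the mRNA-binding proteins IGF2BP1, IGF2BP2 and IGF2BP3, the insulin-degrading enzyme IDE and IGFALS, a partner of circulating IGF complexes. Their log2 differences lay between -0.26 and 0.34. IGF1, PAPPA, IGFBP5, IGFBP6 and IGFBP7 were not detected on either array.

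The branch through PI3-kinase, AKT and mTOR had 21 measured genes, of which 1 passed 1.5-fold upwards and 2 downwards, and its median log2 difference was 0.00. These counts are near the shares of 3.87% and 4.09% over all genes. Both lower genes, PIK3R1 and TSC1, were in the dimmest part of the measured genes, of which 12.4% passed in either direction. The higher one was FOXO1, with an intensity of 369.8 in berberine-treated cells and 224.9 in control cells, 1.99-fold higher, and 1.56-fold higher in the deposited values. PIK3R1, the regulatory subunit of PI3-kinase that binds the IRS adaptors, had 196.7 in berberine-treated cells and 272.2 in control cells, 2.00-fold lower, but 1.47-fold lower in the deposited values. TSC1, an inhibitor of mTOR, had 172.7 in berberine-treated cells and 222.0 in control cells at its brightest probe, 1.92-fold lower, and 1.36-fold in the deposited values. Its other detected probes had log2 differences of -0.57 and 0.23, so its probes disagreed in direction. AKT1S1, an inhibitory component of the mTOR complex, was detected on the control array only, with 148.0 in berberine-treated cells and 168.5 in control cells, and was at least 1.62-fold lower, with a bound of 1.19-fold in the deposited values. AKT1 itself had a log2 difference of 0.00.

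In the RAS-MAPK branch, 11 genes were measured, with 0 higher, 1 lower and a median log2 difference of 0.00, near the 3.87% and 4.09% over all genes. The lower one, in the dimmest part of measured genes, was SOS1, the exchange factor that activates RAS, with 182.3 in berberine-treated cells and 218.2 in control cells, 1.64-fold lower, but only 1.27-fold lower in the deposited values. Among negative regulators of insulin signalling, 19 genes were measured, with 1 higher, 1 lower and a median of 0.11, again near the shares over all genes. TRIB1, a pseudokinase of the tribbles family, had 3167 in berberine-treated cells and 1421 in control cells, 2.15-fold higher, and 2.05-fold higher in the deposited values. PHLPP2, a phosphatase that removes phosphate from AKT and a gene of the dimmest part, had 165.1 in berberine-treated cells and 184.3 in control cells, 1.53-fold lower, but 1.19-fold lower in the deposited values. Among 12 measured imprinted genes other than IGF2 and H19, 0 passed the threshold in either direction, which at 3.87% and 4.09% over all genes is near the background. The largest differences were those of PEG3 (-0.38), KCNQ1OT1 (-0.34) and PHLDA2 (0.29), and the median was -0.01.

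**Figure D3:**
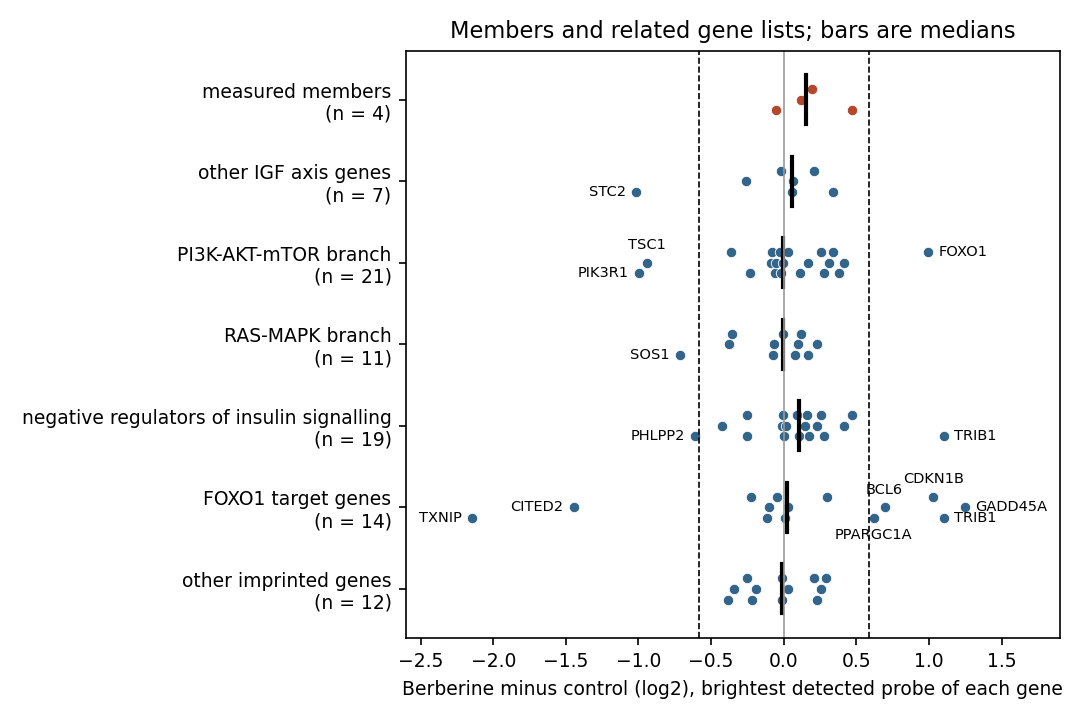
Log2 difference, berberine minus control, of the brightest detected probe of each measured gene, by list, with list medians as black bars and dashed lines at 1.5-fold. The 4 measured members lie between -0.05 and 0.47, and the named points are the genes past 1.5-fold in the lists.

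IGFBP1, IRS2 and INSR are themselves known FOXO1 target genes. IGFBP1 was 1.39-fold higher with berberine. INSR was detected in control only and was at least 1.37-fold lower, and IRS2 was detected on neither array. Other known targets of FOXO1 were described beside them. Of 23 such genes, 14 were measured, 5 (GADD45A, TRIB1, CDKN1B, BCL6 and PPARGC1A) passed 1.5-fold upwards and 2 (TXNIP and CITED2) downwards. Over all genes these shares were 3.87% and 4.09%. The list was chosen with earlier results of these data known. Its counts beside the shares over all genes are therefore a description and no evidence of an excess. The median of the list was 0.02, close to the -0.01 over all measured genes, and no test of the list was made. TRIB1 counts here and among the negative regulators. In the deposited values, 3 of the 14 (GADD45A, TRIB1 and CDKN1B) were higher and 2 lower, where over all genes 1.44% were higher and 1.01% lower.

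GADD45A, a growth-arrest and DNA-damage protein, had an intensity of 744.2 in berberine-treated cells and 352.0 in control cells, 2.38-fold higher, and its second detected probe had a log2 difference of 0.96. CDKN1B, the cell-cycle inhibitor p27, had 1061 in berberine-treated cells and 540.7 in control cells, 2.04-fold higher, with 0.75 at its second probe. BCL6, a transcriptional repressor, had 701.2 in berberine-treated cells and 445.0 in control cells, 1.62-fold higher, and 1.48-fold in the deposited values. GADD45A and CDKN1B thus had the same direction on both of their probes, while TRIB1, BCL6, PPARGC1A, TXNIP, CITED2 and KLF15 rest on 1 probe each. KLF15, a transcription factor of amino acid and glucose metabolism, and CCNG2, an unconventional cyclin, were detected on the berberine array only. KLF15 had 222.7 in berberine-treated cells and 129.8 in control cells and was at least 2.54-fold higher. CCNG2 had 222.4 in berberine-treated cells and 122.3 in control cells and was at least 2.53-fold higher. In the deposited values both bounds were under the threshold, at 1.48-fold for KLF15 and 1.47-fold for CCNG2.

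The other direction was taken by TXNIP, which restrains thioredoxin and glucose uptake and is also a classical glucose-induced gene, and by CITED2, a transcriptional coregulator in the dimmest part of measured genes. TXNIP had 273.7 in berberine-treated cells and 799.3 in control cells, 4.42-fold lower, and the deposited values gave 3.10-fold. CITED2 had 180.8 in berberine-treated cells and 293.3 in control cells, 2.72-fold lower, and the deposited values gave 1.73-fold. PCK1 and G6PC1, the gluconeogenic enzymes that FOXO1 activates in liver, were not detected on either array, and nor was PDK4. IGFBP1, at 1.39-fold higher, stood between these groups, past SOD2, whose log2 difference was 0.30, and under PPARGC1A, whose difference was 0.62. PPARGC1A had 350.4 in berberine-treated cells and 250.2 in control cells. In the deposited values the log2 difference was 0.40 for PPARGC1A, or 1.32-fold, and 0.41 for IGFBP1. The order of IGFBP1 and PPARGC1A thus depends on the scale. The promoter table held 29 windows of 17 genes of the list, and 4 of these windows, of BCL2L11, MTTP, PIK3IP1 and TXNIP, held either FOXO motif, where 8.07% of all windows did.

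**Figure D4:**
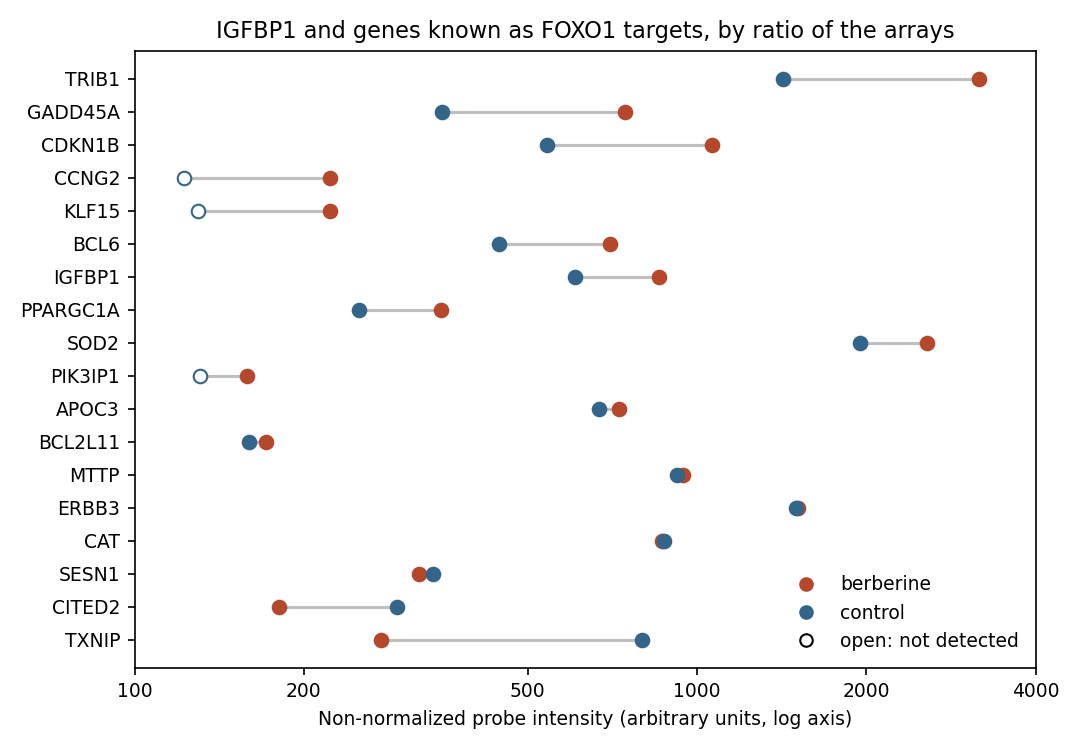
Non-normalized intensity (log axis) on the berberine array and the control array for IGFBP1 and the listed other FOXO1 targets. Genes detected on at least 1 array are shown, ordered by the ratio of the arrays. INSR (138.1 with berberine, 157.7 in control), also a known target, is not drawn. Open points were not detected; IGFBP1 (856.2 with berberine, 606.4 in control) lies among the higher genes, and TXNIP (273.7 with berberine, 799.3 in control) has the lowest ratio.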

How the data were processed

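Total RNA of berberine-treated and control HepG2 cells was measured on 1 array each. The authors deposited probe intensity before normalization, with detection p-values, and normalized intensity on a linear scale whose ranks within each array were the same (rank correlation 1). GenomeStudio is named in the submitters' processing notes, without a version. The labels name a Roche kit for RNA isolation and the study's methods name TRIZOL.

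The unnormalized table was passed through the neqc function (limma 3.58.1, R 4.3.3), with background from the detection p-values, an offset of 16, quantile normalization and log2. This scale widens folds of dim probes relative to the deposited one. Of 47231 probes, 8 with several gene symbols and 17110 with none were left out, and symbols were updated with the RefSeq gene table through Entrez identifiers for 30074 and accessions for 18 of the rest, while 21 kept the annotation's name. A gene took its brightest probe detected on both arrays. The steps were run on simulated data. The scatter added there was smaller than the single-probe SD, so this run does not gauge the error of folds here. Known folds were added there only to detected probes brighter than those of IGF2, IGFBP4 and INSR, so folds of genes that dim were not tested. Tables and figures were made in Python 3.11.15 with pandas 2.3.3, numpy 2.4.6 and matplotlib 3.10.9.

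The genes and lists were chosen with earlier results of these data known. Named were all 10 genes, list genes over 1.5-fold (up to 6 a list, otherwise the 3 largest differences), and genes detected on 1 array with a bound over 1.5-fold. Other names, such as AKT1, SOD2 and PPARGC1A, were chosen after their values were seen. Sequences are RefSeq's. The 7 alternatives were the deposited normalized intensity, no background correction, no quantile normalization, an offset of 50, a detection p under 0.05, no filter on dim probes and the mean of detected probes.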

Additional observations from a re-analysis of the deposited data

How the results depend on the processing

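No paired analysis was possible because each group had 1 array and the labels share a single replicate number. Of the 10 genes, the 4 detected on both arrays gave counts of 0 over 1.5-fold higher and 0 lower. The lower count became 1 (INSR) with a detection p under 0.05 and with no filter on dim probes, where INSR counts as measured. The log2 difference of INSR, a bound of -0.46 as reported, was -0.92 under both of these settings, -0.16 in the deposited normalized intensity and -0.13 without background correction. IGF2, IGFBP1, IGFBP2, IGFBP4 and IRS1 moved by less than the single-probe SD of 0.25 under all 7 alternatives, and so did the medians of the 6 lists. In the PI3K-AKT-mTOR branch the lower count of 2 became 0 in the deposited values and without background correction. It became 3 with a detection p under 0.05, 4 with no filter and 1 with the mean of detected probes. The lower counts of 1 in the RAS-MAPK branch and of 1 among negative regulators became 0 in the deposited values, without background correction and with an offset of 50. Among FOXO1 targets the higher count of 5 became 3 in the deposited values and without background correction. That count was 4 with an offset of 50, 6 with a detection p under 0.05 and 7 with no filter. Among other imprinted genes the higher count of 0 became 1 with no filter. Over all genes, the deposited values gave 131 higher and 92 lower, no background correction 138 and 80, an offset of 50 gave 213 and 218, and no filter on dim probes gave 671 and 671, against 353 and 373. All 126 values of the 18 named list genes under the alternatives kept their sign. These genes were named for their differences on the same arrays that the alternatives process again, so this does not test their directions. The causes were not tested. H19, IGFBP3, IGF1R and IRS2 were at background on both arrays and give no fold. Signal over background also limits IGF2, IGFBP4 and INSR, whose detected intensities lay between 150.9 and 174.5, with background means of 121.5 on the berberine array and 112.5 on the control array.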
